A study of Drosophila melanogaster with 4 samples.

Results

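The end point of a short drug course in Drosophila S2 cells was described by comparing a library made after 60 min of 40 µM radicicol with the DMSO library, 1 library each. Genes entered when their mean count over this pair was at least 20, which left 7886 of 14869 gene IDs, here called measured genes. S2 is an established Drosophila line of embryonic origin with features of blood cells (haemocytes). The cells grew exponentially in Schneider medium, per the labels, and the libraries hold poly(A) RNA. The DMSO cells received the solvent alone and carry the time label 0 min. The remaining libraries, made 15 and 30 min after radicicol was added, are used here to place single values in time. The families described were chosen outside the heat shock response, and exon length was taken into account throughout.

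Radicicol is a fungal product that occupies the ATP pocket of Hsp90. Hsp90 is an abundant cytosolic chaperone that folds and holds many protein kinases, steroid receptors and other client proteins, and its inhibition is known to free heat shock factor, which drives the chaperone genes. Hsp83, the Drosophila gene for Hsp90, was at 2995, 6166, 9901 and 15860.4 CPM (counts brought to 1 common depth with TMM library sizes) in the DMSO, 15, 30 and 60 min libraries. The 50 measured chaperone and heat shock genes took 1.72% of gene counts in DMSO and 6.72% at 60 min, and they are left out of every family below.

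The DMSO library held 19153476 gene counts and the 60 min library 31028233. The DMSO library stood apart in reads that did not align, 44.1% of all reads against 17.8 to 21.5% in the 3 radicicol libraries. It also held more RNA without a poly(A) tail: the 18S ribosomal RNA pseudogene 18SrRNA-Psi:CR41602 was at 258, 15.5, 5.12 and 4.90 CPM in the DMSO, 15, 30 and 60 min libraries, and the signal recognition particle RNA 7SLRNA:CR42652 was at 169, 21.7, 12.7 and 8.46 CPM. All 10 haemocyte markers looked for were measured in both libraries. Each condition has a single library, so values carry no error between replicates and no test between conditions is possible. The interval given after a log2 fold is an exact 95% interval for counting error alone. A gene is called higher or lower when its log2 fold, 60 min over DMSO, was at least 1 in size with the interval on that side of 0. In bulk RNA, fewer cells that express a gene and less of its RNA per cell cannot be told apart.

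After 60 min the folds were ordered by transcript length, with long transcripts mostly higher and short transcripts mostly lower. Of the measured genes, 1644 (20.8%) were called higher and 920 (11.7%) lower, and the median log2 fold was 0.02. The 7222 genes with an annotated exon length were put into 10 classes of equal size. In the shortest class, with a median exon length of 682 bases, the median log2 fold was -0.92, and 309 genes (42.7%) were lower against 35 (4.84%) higher. In the longest class, with a median of 7188 bases, the median was 1.47, and 545 genes (75.4%) were higher against 12 (1.66%) lower. Each class between them lay above the one shorter than it. Across genes, which are not independent replicates and share the same 2 libraries, Spearman's rank correlation of fold and exon length was 0.68. Gene span, introns included, gave 0.67.

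The step between the classes was not spread evenly over the hour. The longest class exceeded the shortest by 0.78 on the log2 scale from DMSO to 15 min, by 0.09 from 15 to 30 min and by 1.5 from 30 to 60 min. Over the whole comparison the distance was 2.39, and with the 15 min library in place of DMSO it was 1.62, so a distance of that size was present within the radicicol libraries alone. Genes without introns showed the same order as genes with introns, -0.84 against -0.93 in the shortest class and 1.42 against 1.47 in the longest, although the longest class held only 10 genes without introns. The same distance was taken in 3 groups of equal size by CPM per kb. It was 1.91 in the group with the lowest level, 2.38 in the middle group and 2.5 in the highest. The part of unaligned reads and of ribosomal RNA in these distances was not tested.

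**Figure D1:**
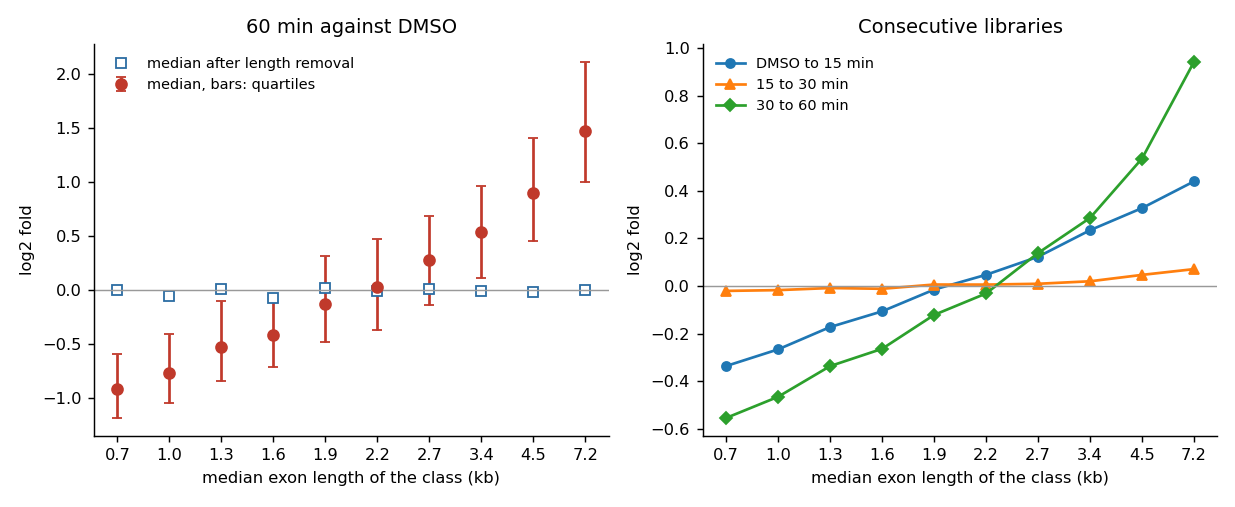
Median log2 fold of the 10 exon length classes (x axis, median exon length in kb). Left, 60 min against DMSO with quartiles as bars, and the same medians after the length relation was removed. Right, the 3 consecutive steps between libraries. The medians run from -0.92 to 1.47 on the left, and the step from 15 to 30 min is nearly flat.

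To describe families apart from this relation, a smooth curve of log2 fold on log2 exon length was subtracted from each gene, and the median over all genes was left unchanged. This is called the length-removed fold. The curve took up 33.6% of the variance of the fold, and the standard deviation over genes went from 1.18 to 0.96. After removal 681 genes (9.43%) were called higher and 339 (4.69%) lower, and outside the heat shock and chaperone list the shares were 9.2% and 4.73%. Of these, 532 higher and 179 lower genes were also called on the fold as measured, and 149 higher and 160 lower genes were called only after removal. Among the last 160, 33 had a fold above 0 before removal, so they were less high than other genes of their length. With the 15 min library in place of DMSO, 13.5% of genes were higher and 2.85% lower as measured, and 6.58% and 2.3% after removal. There 432 of the 681 higher genes and 146 of the 339 lower genes were called again in the same direction. Both comparisons use the same end point library, so this overlap was in part built in and is no independent repeat of the calls.

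Single genes of extreme length show what removal does. The spectraplakin gene shot, which links actin filaments to microtubules and has 30414 exon bases, was at 99.97, 146, 153 and 515 CPM in the DMSO, 15, 30 and 60 min libraries. Its log2 fold of 2.37 (2.30 to 2.44) became 0.23. Dscam1, a cell surface receptor with many splice forms, went from 2.16 to 0.05 in the same way, and the mucin gene Muc14A, the neural factor gene pros and the transcriptional repressor gene spen also lost their calls. In the opposite case the ecdysone-induced nuclear receptor gene Eip75B was at 35.8, 44.6, 31.4 and 38.5 CPM. Its fold of 0.11 (-0.03 to 0.25) became -1.76. The phosphodiesterase gene dnc (0.32 to -1.65), bt, which encodes a giant muscle protein (0.59 to -1.53), the ubiquitin ligase gene HERC2 (0.89 to -1.06) and the chromatin factor gene upSET (0.82 to -1.01) likewise gained a call as lower.

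Over the 60 families and marker lists, medians as measured ran from -1.12 to 2.48, and 26 lay at 0.5 or above and 9 at -0.5 or below. After length removal they ran from -0.64 to 0.89, with 7 at 0.5 or above and 1 at -0.5 or below. The 60 lists share the 2 libraries and some members. Across them, Spearman's rank correlation between a list's median fold and its median exon length was 0.85 as measured and 0.03 after removal. The curve was fitted on exon length over these same genes, so a value near 0 after removal was built in. Within lists the relation was also seen: fold and exon length had a positive rank correlation in 49 of the 54 lists with enough members for one. Both values are therefore given for each family. Family counts stand against the shares of all genes. As measured 20.8% were higher and 11.7% lower, and after removal 9.43% were higher and 4.69% lower.

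**Figure D2:**
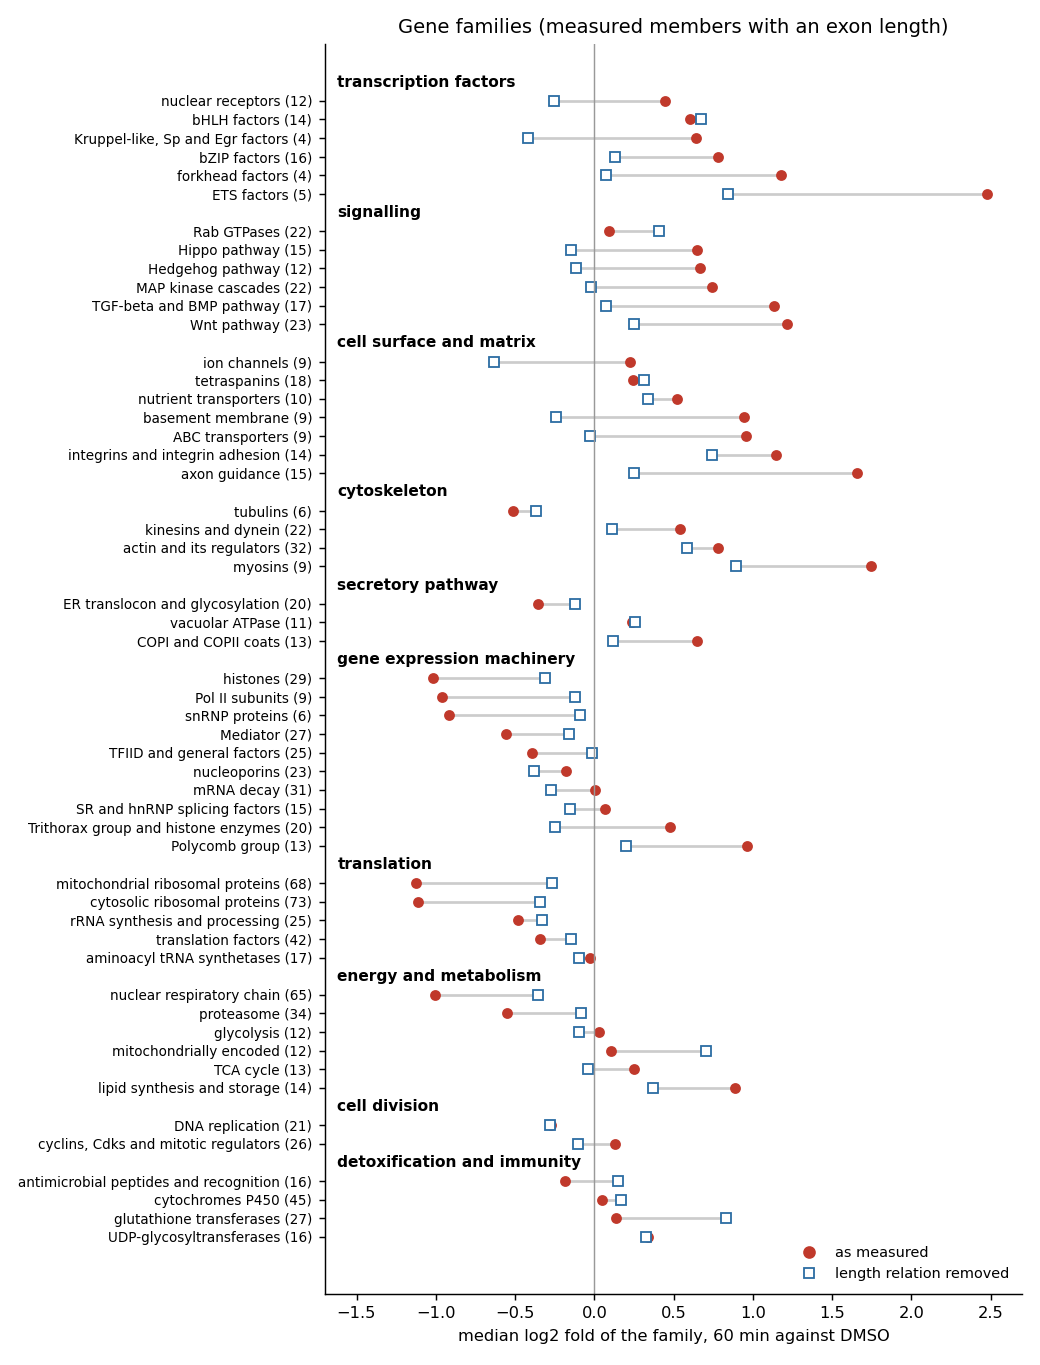
Median log2 fold, 60 min against DMSO, of the gene families reported (y axis, grouped by role, with the number of measured members that have an exon length). Filled circles are medians as measured and open squares medians with the length relation removed. Most squares lie between -0.5 and 0.5, and the squares of myosins, ETS factors, glutathione transferases and integrins lie farthest to the right.

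The machinery that reads genes out contained members of very different length, and their folds followed length inside single complexes. Among the 9 measured subunits of RNA polymerase II, the largest subunit Polr2A, with 6736 exon bases, was at 104.3, 144, 141 and 271 CPM, a log2 fold of 1.38 (1.31 to 1.45). The small subunit Polr2L, with 405 bases, was at 67.5, 49.0, 45.5 and 24.5 CPM, a fold of -1.46 (-1.59 to -1.33). Polr2A was the only subunit higher and 4 were lower. After removal none was called, and Polr2A and Polr2L had folds of 0.01 and -0.41.

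Mediator, the complex that bridges activators and RNA polymerase II, had 27 measured subunits, of which 3 were higher and 6 lower. The gene skd, which encodes the Mediator kinase module subunit Med13 and has 12307 bases, had a fold of 1.60 (1.47 to 1.74), and MED22, with 602 bases, had one of -1.55 (-1.77 to -1.34). Length-removed values were -0.21 and -0.61, and in the whole complex none was higher and 2 were lower. The rank correlation of fold and length was 0.76 within Mediator, 0.76 within TFIID and the general factors, 0.93 within the 31 mRNA decay factors and 0.83 within the 42 translation factors. In TFIID, the scaffold subunits Taf1 (1.10) and Taf4 (1.38) were higher and the TATA-binding protein gene Tbp (-1.06) was lower, and after removal they had -0.28, 0.22 and -0.61.

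**Figure D3:**
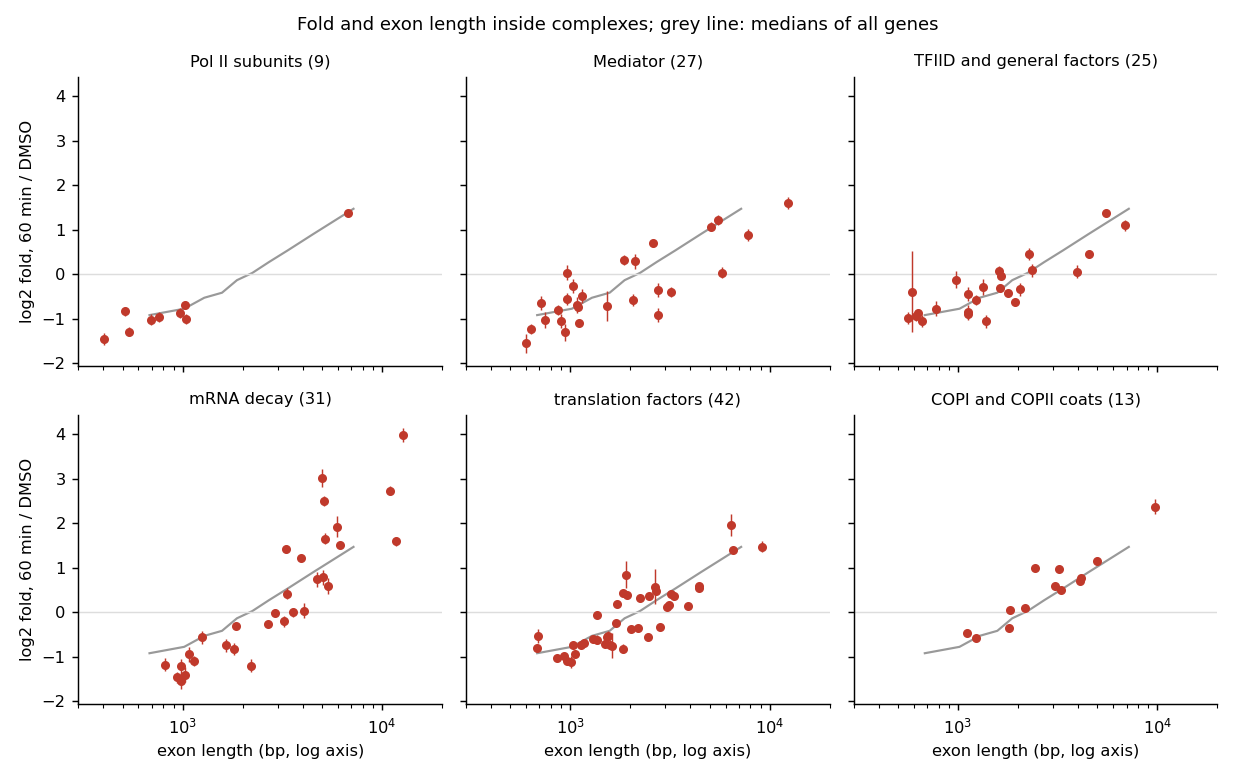
Log2 fold, 60 min against DMSO, of single members (points, bars are 95% counting intervals) against exon length in bases on a log axis, for 6 complexes or families. The grey line joins the medians of the 10 length classes over all genes. Polr2A lies at 1.38 and the other RNA polymerase II subunits lie below 0.

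A few genes of RNA binding and chromatin factors stayed high after removal, at shares near or below the 9.43% of all genes. The shares called higher were 9.68% of 31 mRNA decay genes and 6.67% of 15 splicing factors. They were 7.69% of 13 Polycomb group genes and 5% of 20 genes of the Trithorax group and histone enzymes. Hrb27C, an hnRNP protein of splicing and mRNA localisation, was at 33.7, 90.8, 107 and 501 CPM in the DMSO, 15, 30 and 60 min libraries, and its fold of 3.89 (3.78 to 4.01) remained 2.31 after removal. The translational repressor gene brat was at 19.9, 40.9, 54.8 and 314 CPM and kept 2.14 of 3.98 (3.83 to 4.13). Both were highest at 60 min, with the largest step after 30 min. The AU-rich element decay factor gene Tis11 had 1.97 after removal, but 41.1% of its exon bases overlap another gene, and the nonsense-mediated decay gene Smg5 had 1.43. These genes stood apart from their families, whose medians were -0.15 for splicing factors and -0.28 for mRNA decay.

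In the Polycomb group, which keeps developmental genes silent, Psc, a subunit of Polycomb repressive complex 1, was at 12.5, 16.3, 44.0 and 235 CPM. Its fold of 4.24 (4.05 to 4.43) was 2.93 after removal. It was the only one of the 13 measured members called after removal, where 5 had been higher as measured, and the group's median was 0.20. In the Trithorax group and histone enzymes, 6 of 20 were higher as measured and only Sirt1, a deacetylase gene, stayed so (1.85 to 1.16). After removal 1 member was lower and the median was -0.25.

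Cytosolic ribosomal protein transcripts were short, and as a body they were lower. Of 73 measured cytosolic ribosomal protein genes 48 (65.8%) were lower and none higher, against 11.7% and 20.8% of all genes. Their median was -1.11. RpL17, a large subunit protein, was at 4903, 2913, 2976 and 1704 CPM, a fold of -1.52 (-1.54 to -1.51). RpS3, a small subunit protein, was at 5345, 4021, 3961 and 3004 CPM, a fold of -0.83 (-0.84 to -0.82). Both were lower at 15 min than in DMSO, close to level at 30 min and lower again at 60 min. After removal the median of the 73 was -0.34, 1 of them was lower (RpL5, -1.25) and 3 lay above 0. RpL17 and RpS3 had -0.88 and -0.20, so the family was below the other genes of its length by less than its measured fold.

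Mitochondrial ribosomal proteins and the nuclear-encoded respiratory chain gave similar numbers. Of 68 mitochondrial ribosomal protein genes 48 were lower, and none was called after removal, with medians of -1.12 and -0.27. Of 65 respiratory chain genes 35 were lower and 1 after removal, with medians of -1.01 and -0.35. The short complex I subunit gene ND-B14.5A, with 807 bases, was at 77.0, 47.9, 47.9 and 27.1 CPM, and the long subunit gene ND-75, with 2634 bases, was at 139, 142, 152 and 151 CPM. ND-75 was level over the hour while ND-B14.5A was lower in each radicicol library than in DMSO, and their folds were 0.12 and -1.5. Length-removed folds were -0.12 and -0.67.

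Translation factors had 3 higher and 3 lower members of 42. The scaffold of the cap-binding complex, eIF4G1, with 6565 bases, had a fold of 1.41 (1.37 to 1.45). The elongation factor gene eEF1beta, with 960 bases, had one of -1.08 (-1.11 to -1.05). The translocase gene eEF2, with 3056 bases, was at 9004, 9107, 9265 and 9798 CPM, close to level in all 4 libraries. After removal none of the 42 was called, and none of the 17 aminoacyl tRNA synthetases was called either way. The proteasome, with 3 of 34 members lower, had a median of -0.55 as measured and -0.08 after removal.

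The 12 measured genes of the mitochondrial genome stood on the other side of their nuclear partners. Their median was 0.11 as measured and 0.70 after removal, with 10 of the 12 above 0. Among them the rank correlation of fold and exon length was 0.04, so the relation that was removed was not seen in this list. The cytochrome oxidase subunit gene mt:CoI was at 1951, 2246, 2394 and 2577 CPM, a fold of 0.40 and a length-removed fold of 0.75. The subunit gene mt:CoII was at 1379.9, 1132, 1116 and 677 CPM, a fold of -1.03 and -0.13 after removal. The highest, mt:ATPase8 with 2.95 after removal, has only 162 bases, lies at the edge of the curve and had 22 counts in DMSO and 103 at 60 min. Reads of neighbouring mitochondrial genes can be hard to assign, and with the 15 min library in place of DMSO the medians were -0.10 as measured and 0.32 after removal.

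Histone genes had 16 of 29 measured members (55.2%) lower and 1 higher, against 11.7% and 20.8% of all genes. After removal 1 (3.45%) was called in each direction, against 4.69% lower and 9.43% higher among all genes. The higher one as measured, His3.3B, makes a replication-independent histone and was at 213, 260.3, 290.4 and 436 CPM. The replication-dependent copies are near identical to each other, so their single values are uncertain. The part of RNA without a poly(A) tail, more of which the DMSO library held, was not tested here.

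Signalling families had long transcripts, and most of their measured excess was shared with other long genes. Of the 23 Wnt pathway genes 12 (52.2%) were higher and none lower, against 20.8% and 11.7% of all genes, with a median of 1.21. After removal the median was 0.25, with none higher and 1 (4.35%) lower, against 9.43% and 4.69% of all genes. All 15 axon guidance genes, receptors and ligands that steer cell contacts, were higher with a median of 1.66, and 1 of them (Lar, 83.6% of whose exon bases overlap another gene) after removal.

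In kinase and morphogen pathways the share of genes called higher after removal was near that of all genes, 9.43%: it was 9.09% of 22 in the MAP kinase cascades, 8.33% of 12 in the Hedgehog pathway and 11.8% of 17 in the TGF-beta and BMP pathway. In the MAP kinase cascades, puc, the phosphatase that switches off the JNK kinase and is itself induced by JNK signalling, was at 59.8, 83.9, 185 and 497 CPM, a fold of 3.05 (2.97 to 3.14) and 2.59 after removal. The upstream kinase gene msn went from 2.43 to 1.05, and the JNK gene bsk was at 102, 102, 105 and 95.4 CPM. Thus 2 of the 22 members were higher after removal, where 7 were as measured. In the Hedgehog pathway the receptor gene ptc was at 13.9, 25.8, 28.9 and 71.1 CPM, a fold of 2.36 (2.17 to 2.55) and 1.2 after removal. In the TGF-beta and BMP pathway the secreted BMP antagonist gene sog went from 2.56 to 1.23 and the activin-side Smad gene Smox from 2.07 to 1.16.

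The Hippo pathway, which restrains growth, held a gene in each direction. The upstream gene ex was at 24.4, 51.7, 49.4 and 139 CPM, a fold of 2.51 (2.36 to 2.65) and 1.15 after removal. Tgi, a repressor that acts on the pathway's transcription factor complex, was at 112, 119, 76.9 and 46.1 CPM, a fold of -1.28 (-1.38 to -1.19) and -1.42 after removal. Tgi was level at 15 min and lower in both later libraries. Rab GTPases, the switches of membrane traffic, had 3 of 22 (13.6%) higher before and after, against 20.8% and 9.43% of all genes. Among them were Rab30 (1.70 to 1.75) and Rab10 (1.34 to 1.25).

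Actin, myosin and integrin genes stayed above other genes of their length. Of 32 genes for actin and its regulators 10 were higher as measured and 10 after removal, against 20.8% and 9.43% of all genes, with medians of 0.78 and 0.58 and 27 of the 32 above 0 after removal. The filament elongation factor gene ena was at 20.8, 51.9, 56.0 and 167 CPM, a fold of 3.01 (2.86 to 3.16) and 1.74 after removal. WASp, which activates the Arp2/3 complex, was at 50.3, 70.7, 90.3 and 188 CPM, a fold of 1.90 (1.80 to 2.0) and 1.45 after removal. The disassembly factor gene flr was at 99.4, 133, 158 and 275 CPM with 1.47 and 1.37. All 3 were above DMSO in each radicicol library and highest at 60 min. Act5C, the main cytoplasmic actin gene, was at 5654 CPM in DMSO and 9070.0 at 60 min with a fold of 0.68, and 0.29 after removal. The 6 actin genes are close copies, so reads may be split between them.

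Of 9 myosin genes 6 (66.7%) were higher as measured and 3 (33.3%) after removal, against 20.8% and 9.43% of all genes. Their medians were 1.75 and 0.89. Myo28B1, an unconventional myosin of class VII, was at 15.6, 30.4, 53.7 and 133 CPM, a fold of 3.09 (2.92 to 3.27) and 1.64 after removal. The class I myosin gene Myo61F was at 200.4, 309.7, 408 and 835 CPM with 2.06 (2.01 to 2.11) and 1.32. The light chain gene Mlc-c, a short gene, had 0.73 as measured and 1.17 after removal.

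Integrins and their adhesion partners had 7 of 14 members (50%) higher as measured, against 20.8% of all genes. After removal 5 (35.7%) were higher, against 9.43% of all genes. The medians were 1.14 and 0.74, and 13 of the 14 lay above 0 after removal. The beta subunit gene mys was at 147, 206, 270.0 and 595 CPM, a fold of 2.02 (1.96 to 2.08) and 1.11 after removal. The talin gene rhea, which ties integrins to actin, was at 32.3, 54.1, 62.4 and 243 CPM, a fold of 2.91 (2.79 to 3.03) and 1.15 after removal. ItgaPS4, an alpha subunit gene with 20 counts in DMSO and 267 at 60 min, had 3.02 (2.37 to 3.76) and 2.48. Of 9 basement membrane genes 4 were higher as measured and none after removal, where 3 lay above 0. Their length-removed median was -0.24, and 0.11 with gene span in place of exon length. The laminin gene LanA went from 1.99 to 0.21, and wb of the same list from 2.52 to 0.64. The symbols LanB1, LanB2 and trol matched no ID.

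**Figure D4:**
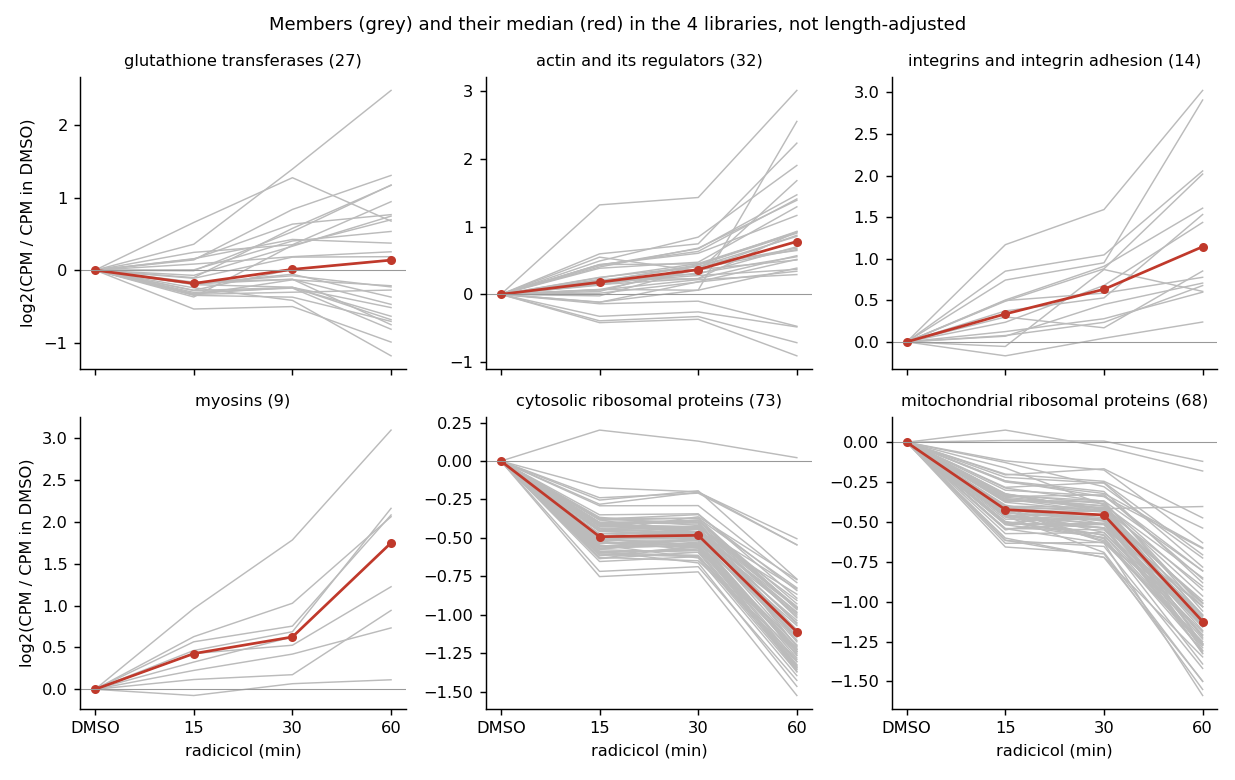
Members of 6 families (grey lines) and their median (red) in the 4 libraries, as log2 of CPM over CPM in DMSO, without length removal. The actin, integrin and myosin medians reach 0.78, 1.14 and 1.75 at 60 min, and both ribosomal protein medians lie near -1.1.

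Among motors on microtubules a few genes stayed higher after removal. Of 22 kinesin and dynein genes 8 (36.4%) were higher as measured, against 20.8% of all genes. After removal 4 (18.2%) were higher and 1 (4.55%) lower, against 9.43% and 4.69% of all genes. Dlic, the dynein light intermediate chain, was at 9.45, 22.2, 23.8 and 89.6 CPM, a fold of 3.24 (3.02 to 3.47) and 2.55 after removal. The microtubule depolymerase gene Klp10A went from 2.47 to 1.39. None of the 6 measured tubulin genes was higher, and 1 was lower as measured.

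Glutathione transferases, which join glutathione to reactive compounds, were the family with the largest gain in calls. They are short, with a median of 881 bases, and their median fold was 0.14 as measured but 0.83 after removal. As measured 4 of 27 (14.8%) were higher and 1 (3.70%) lower, against 20.8% and 11.7% of all genes. After removal 11 (40.7%) were higher, against 9.43% of all genes, and none lower. Within the family the rank correlation of fold and exon length was -0.44, so its members did not follow the relation that was removed. GstE7 was at 48.2, 61.7, 127 and 269.5 CPM, a fold of 2.48 (2.38 to 2.59) and 3.34 after removal. GstE3 was at 96.8, 107, 173 and 240.0 CPM, a fold of 1.31 (1.23 to 1.38) and 2.17 after removal. GstD2 was at 4.86, 4.52, 7.25 and 11.0 CPM, a fold of 1.17 (0.83 to 1.52) and 2.05 after removal. GstE7 and GstE3 were already higher at 15 min and higher again in each later library, whereas GstD2 was near its DMSO level at 15 min. The abundant GstD1 was at 314 CPM in DMSO and 346 at 60 min, a fold of 0.14 and 0.95 after removal. The 11 called after removal were of the delta, epsilon and omega classes, and no theta or zeta member was among them. Among members with a mean of at least 100 counts the medians were -0.22 as measured and 0.66 after removal. Members of a class resemble each other and lie close together in the genome, so they are not independent.

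Other families that handle foreign compounds had smaller shares of higher calls after removal than the glutathione transferases. Of 45 cytochrome P450 genes 6 (13.3%) were higher before and after removal, against 20.8% and 9.43% of all genes, with medians of 0.05 and 0.17. Cyp6a9 was at 1.08, 1.33, 2.03 and 4.84 CPM, a fold of 2.16 (1.48 to 2.92) and 2.27 after removal. Of 16 UDP-glycosyltransferase genes 2 (12.5%) were higher before and after, and all 16 lay above 0 after removal with a median of 0.33. The efflux transporter gene Mdr49 was at 6.70, 9.62, 20.8 and 52.8 CPM, a fold of 2.98 (2.72 to 3.26) and 2.10 after removal, and no other of the 9 ABC transporter genes was called after removal. The trehalose transporter gene Tret1-1 was at 38.2, 53.5, 103 and 279.6 CPM, a fold of 2.87 (2.76 to 2.98) and 2.32 after removal. Antimicrobial peptide and recognition genes had 2 higher and 2 lower of 16, and 1 in each direction after removal.

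In metabolism, the phosphatidylcholine synthesis gene Pcyt1 was at 159.5, 219, 280.0 and 490.2 CPM, a fold of 1.62 (1.56 to 1.68) and 1.12 after removal. Lipid synthesis and storage had 6 of 14 genes (42.9%) higher and 3 (21.4%) after removal, against 20.8% and 9.43% of all genes. Its medians were 0.89 and 0.37. The citrate cycle had 2 of 13 genes higher and 1 lower as measured. Idh3a, a subunit of its isocitrate dehydrogenase, stayed higher with 1.23 as measured and 1.26 after removal. Of 12 glycolysis genes 1 was higher as measured and none after removal.

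ETS factors were the family with the highest measured median. Of 5 measured members 4 were higher, with a median of 2.48, and 2 after removal, with a median of 0.84. Without the filter on low counts the length-removed median was 0.32 and the measured median 1.2. Ets21C, an ETS activator known as a stress and JNK target, was at 2.75, 4.59, 15.4 and 88.5 CPM, a fold of 5.01 (4.61 to 5.44) and 3.87 after removal. The ETS repressor gene aop was at 38, 69.9, 94.7 and 238 CPM with 2.65 (2.54 to 2.76) and 1.5, and its antagonist pnt had 1.2 and -0.08. Ets21C had its largest step after 30 min, and 28.3% of its exon bases overlap another gene.

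Among bZIP factors 8 of 18 were higher and 2 lower as measured, and 3 and 1 after removal. The clock repressor gene vri was at 5.18, 9.85, 22.3 and 103 CPM, a fold of 4.31 (4.02 to 4.62) and 3.33 after removal. The AP-1 partners differed after removal: Jra, the short Jun gene, had 1.61 and 1.90, and kay, the long Fos gene, had 1.66 and 0.16. Atf3 was at 18.7, 4.16, 3.45 and 5.66 CPM, a fold of -1.73 (-2.0 to -1.46), and this distance lay between DMSO and 15 min, since the 60 min value was above the 15 min one. bHLH factors had medians of 0.61 and 0.67 (0.43 after removal with the 15 min library in place of DMSO). Of 14 members 6 (42.9%) were higher as measured and 4 (28.6%) after removal. Among them was Mnt, a partner of Max, at 1.13, 2.40, 1.77 and 15.0 CPM (3.73 and 2.80). Nuclear receptors, several of them ecdysone targets, had 4 of 12 higher, and 1 higher and 1 lower after removal.

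Cell division genes were called in both directions as measured, and after removal in the lower direction alone. Among 26 cyclin, Cdk and mitotic genes 4 were higher and 5 lower as measured, and none higher and 3 (11.5%) lower after removal, against 4.69% of all genes. CycG was at 144, 224, 258 and 678 CPM, a fold of 2.24 (2.18 to 2.29), and its 0.96 after removal lay just under the size rule. The length-removed median of the 26 was -0.10, and 0.10 with coding length and 0.06 with gene span. The Cdc25 phosphatase gene stg was at 114.9, 106, 58.4 and 59.9 CPM, a fold of -0.94 (-1.03 to -0.85) and -1.37 after removal. Cdk2 was at 31.9, 29.3, 25.1 and 15.7 CPM, a fold of -1.02 (-1.2 to -0.85) and -1.09 after removal, but 43.9% of its exon bases overlap another gene. The kinetochore gene Ndc80 had -1.03 and -1.06. The origin licensing factor gene Cdc6 was at 26.2, 24.4, 17.1 and 9.57 CPM, a fold of -1.45 (-1.67 to -1.24) and -1.61 after removal, and was 1 of 2 lower genes (9.52%) among 21 of DNA replication after removal. For stg the value at 15 min was close to DMSO and both later values were lower, and for Cdc6 the last value was the lowest.

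Outside the families, most of the highest length-removed folds belonged to genes with few counts in DMSO, which passed the filter through the 60 min library. Their low DMSO counts are therefore in part built into this ranking. CG31798 had 2, 32, 95 and 398 counts in the DMSO, 15, 30 and 60 min libraries, a log2 fold of 6.92 (5.06 to 9.97) and 7.05 after removal. The ammonium transporter gene Amt had 3, 22, 49 and 239 counts, with 5.60 (4.04 to 7.89) and 5.81. CG32512 was the most abundant of the 12 highest, with 80, 295, 613 and 3516 counts and folds of 4.74 (4.42 to 5.08) and 4.57. In all 3 each library was above the one before it. CG30280, CG32182 and Nepl13 had no count in DMSO and 184, 116 and 131 at 60 min, which with 3 counts set for DMSO gives at least 37.4-fold, 23.6-fold and 26.6-fold higher values. Neighbouring genes occurred together: CG30280 lies directly before CG30281 on the same strand, and the neprilysin-like peptidase genes Nepl15, Nepl14 and Nepl13 follow each other, with 19, 4 and 0 counts in DMSO and 316, 207 and 131 at 60 min.

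**Figure D5:**
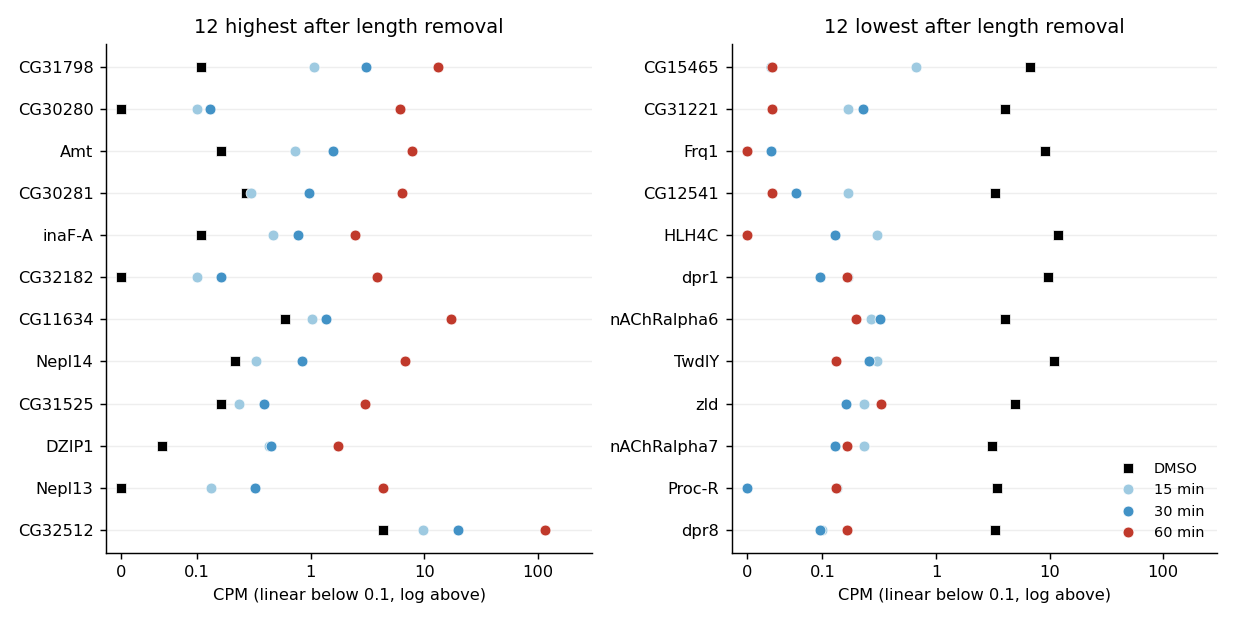
CPM in the 4 libraries (x axis, linear below 0.1 and log above) of the 12 protein-coding genes with the highest and the 12 with the lowest length-removed fold. On the left the 60 min value is the highest of each gene. On the right every gene is low already at 15 min.

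The lowest length-removed folds had another course. The bHLH gene HLH4C had 221, 9, 4 and 0 counts, the calcium sensor gene Frq1 had 169, 0, 1 and 0, and the acetylcholine receptor gene nAChRalpha6 had 75, 8, 10 and 6. All 12 lowest were already low at 15 min, with 0 to 20 counts there against 57 to 221 in DMSO, so most of their folds rest largely on the DMSO library. CG15465 differed, with 124, 20, 1 and 1 counts. Its log2 step was -3.33 from DMSO to 15 min and -4.34 from 15 to 60 min. CG31221 and CG12541 each had 5 counts at 15 min and 1 at 60 min. Ion channels were the only family with a median of -0.5 or below after removal (-0.64), with 3 of 9 lower. Of these 3, the potassium channel gene Sh had 43, 2, 4 and 2 counts and was low from 15 min on. The potassium channel gene SK had 32, 21, 20 and 15 counts, or 1.73, 0.699, 0.645 and 0.494 CPM, and Irk3 had 28, 28, 25 and 22 counts, or 1.51, 0.932, 0.806 and 0.724 CPM, so their drop at 15 min was smaller than that of Sh. The family's median was -0.505 with the 15 min library in place of DMSO, -0.06 among members with a mean of at least 100 counts and -0.08 when coding length was used in place of exon length. Of the 339 lower genes after removal, 60 were already at least 2-fold lower at 15 min. Of these 60, 34 (56.7%) lie on the X chromosome, against 18% of all genes with an exon length, and 58 of the other 279 do. The ribosomal and 7SL RNA described above were high in the same library, and the part of that library's makeup in these genes was not tested.

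Marker lists of other cell types showed where such genes lie. The 10 haemocyte markers had a median of 0.81 as measured, with 3 higher, and -0.30 after removal, with none called. Hml, the haemocyte adhesion protein gene, was at 60.3, 76.3, 74.5 and 135 CPM. Of the neuron markers matched, 5 of 10 were measured. As measured 3 were higher and 1 lower, and after removal 2 were higher and 1 lower, with medians of 1.62 and -0.24. The acetylcholine synthesis gene ChAT had 70, 4, 3 and 14 counts and the RNA binding gene elav, 34.2% of whose exon bases overlap another gene, had 28, 135, 123 and 496, so the first was high in DMSO alone and the second highest at 60 min. Of the muscle markers 6 of 7 were measured, and after removal 3 were higher and 2 lower, between -1.53 and 1.29. Of the germ line markers 4 of 5 were measured, and after removal none was higher and 1 lower, at -1.46. Their medians after removal were 0.30 and 0.33, and 1.16 and -0.78 with a mean of at least 100 counts. Of the cuticle proteins 8 of 106 were measured.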

How the data were processed

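After DMSO or 40 µM radicicol, poly(A) RNA of Drosophila S2 cells was made into 1 Illumina library per condition, per the labels' protocols. The authors deposited raw read counts per FlyBase gene, without normalisation. Per the submitters' processing notes reads were handled with Bowtie and HTSeq on the build dm3. Their versions and settings, strand among them, are not given in the sources used. Besides 14869 gene IDs a file has 5 summary entries of HTSeq, left out of library sizes. Reads aligned outside every gene made up 14.7 to 16.4% of aligned reads, and reads within several genes 1.13 to 1.38%. HTSeq listed 0 reads with non-unique alignment in every file, so how near-identical genes were counted is not known.

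Library sizes came from TMM in edgeR 4.0.16 (R 4.3.3) over all gene IDs. Measured genes had at least 20 counts on average over DMSO and 60 min, among them 366 with under 20 counts in DMSO only, of which 245 were called higher, and 70 with under 20 at 60 min only, of which 69 were called lower. These could pass the filter through 1 library alone. A call needs a log2 fold of 1 or more in size and an exact Clopper-Pearson 95% interval on that side of 0. For 0 counts, 3 counts were set in that library. With 1 library per condition there are no residual degrees of freedom and no p-value is given. The median interval reaches 0.14 to each side on the log2 scale. The deposited counts carry no molecular identifiers, so PCR copies count as reads and intervals cover counting error alone.

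Symbols came from a gene name table (13524 IDs) and RefSeq synonyms (9 IDs), and 1336 IDs had none. Exon lengths, the union of a gene's exons, came from a later annotation (Ensembl, assembly BDGP6) and covered 91.6% of measured genes. No coordinates or sequences are printed. The length relation was removed with a local regression of log2 fold on log2 exon length (span 0.5, degree 2, symmetric errors), and its median was added back.

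The genes and the 60 lists were chosen with earlier results of these data known, by family or marker role. Misfiled symbols (such as cyclophilins among cytochromes P450) were taken out after the files were read, but pes stayed misfiled among the genes for ribosomal RNA. A family enters the counts over lists and is not reported here by name. Symbols that matched no ID stay out of a family. Named genes are the 12 highest and 12 lowest length-removed folds of protein-coding genes called both as measured and after removal, with at least 50 counts in the higher library, up to 3 called members per list with the largest length-removed fold in size (where none was called, the most abundant member), the 5 calls with the largest shift lost and gained, and textbook members of a family. The scripts were tested on simulated data.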

Additional observations from a re-analysis of the deposited data

Results flagged for a closer look

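Reads aligned outside every annotated gene, which enter no comparison, were 16.43% (16.42 to 16.44%, exact Clopper-Pearson 95%) of aligned reads at 60 min, above the 14.67% (14.66 to 14.69%) of the DMSO library and the 14.8% of both other radicicol libraries. The intervals cover counting error only, and where these reads lie was not analysed here.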

How the results depend on the processing

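The counts of higher and lower genes were within 1.5 times of the reported ones under total counts or DESeq2 1.42.0 size factors as library size, TMM without the 50 most abundant genes, a filter over all 4 libraries or at a mean of 100 counts, and every other form of length removal. These library sizes shifted the median fold of all genes by at most 0.02. With the 15 min library in place of DMSO, 1065 genes were higher and 225 lower, 166 lower after removal, and the distance between length classes was 1.62. The share of calls in the higher direction was then 82.6% against 64.1%, and it was 54% with a 1.5-fold rule, under which 2073 genes were lower and, after removal, 1309 higher and 1018 lower. Without a filter on low counts 525 were lower after removal. No paired analysis was possible because each condition has 1 library and the labels carry no replicate numbers, and for the same reason no library could be left out within a condition.

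Of the 60 length-removed list medians, 8 changed sign with coding length, 10 with gene span, 7 with the 15 min library, 6 each with a straight line and at a mean of 100 counts, and 2 or fewer under each other setting. Most of these medians were smaller than the typical counting interval of their members reaches to one side. Those that were larger are given here. With coding length they were, after removal, nuclear receptors (0.21), Kruppel-like, Sp and Egr factors (0.10), the Hippo pathway (0.32, and 0.0046 with a straight line) and splicing factors (0.10). With gene span they were bZIP factors (-0.060), basement membrane (0.11), Mediator (0.0059) and aminoacyl tRNA synthetases (0.069). With the 15 min library they were tubulins (0.034), kinesins and dynein (-0.069), aminoacyl tRNA synthetases (0.066) and glycolysis (0.031) after removal, and as measured the mitochondrially encoded genes (-0.10), cyclins and mitotic regulators (-0.10) and crystal cell markers (-0.016). At a mean of 100 counts they were Kruppel-like, Sp and Egr factors (-0.027) and glutathione transferases (-0.22) as measured. Of single genes, Atf3 (0.44) and ChAT (1.79, and 1.31 after removal) reversed with the 15 min library. Among the small marker lists, neuron markers went from -0.24 to 1.29 with coding length and to 1.68 at a mean of 100 counts, where germ line markers stood at -0.78 and cuticle proteins at -5.64. The cause was not tested.

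Each fold rests on 1 library a side, so differences between cultures are not covered. Genes with few counts in DMSO have wide intervals.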

Other observations

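Families of membrane traffic, RNA export and ribosomal RNA synthesis not described above differed in how near they lay to other genes of their length. Of 20 ER translocon and glycosylation genes 4 were lower as measured and none after removal, with medians of -0.36 and -0.12. Among the 14 COPI and COPII coat genes 4 were higher, and Spearman's rank correlation of fold and exon length was 0.87 over the 13 with an exon length. Sec16, the long scaffold of ER exit sites, was at 17.7, 30.4, 33.7 and 91.3 CPM in the DMSO, 15, 30 and 60 min libraries, a fold of 2.37 (2.20 to 2.54) and 0.70 after removal. The 11 vacuolar ATPase genes had medians of 0.24 and 0.26. The 18 tetraspanin genes had 0.24 and 0.31, with 5 of the 18 (27.8%) higher after removal, against 9.43% of all genes. The nucleoporins had 2 of 23 genes higher as measured and 2 lower after removal, with a length-removed median of -0.38 and 4 of 23 above 0. Of 25 genes listed for ribosomal RNA synthesis and processing 6 were lower as measured and 1 after removal, with a length-removed median of -0.33. The 1 member higher as measured was pes (1.41, and 0.70 after removal). It is a scavenger receptor gene misfiled here, and these values still include it.

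The 664 measured IDs without an exon length in the later annotation had more calls in the higher direction than the rest. Of them 253 (38.1%) were higher and 81 (12.2%) lower, against 19.3% and 11.6% of the 7222 genes with an exon length. Their lengths are not known here, so they enter no length-removed value.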
